A study of Mus musculus with 9 samples.

Results

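The 40 genes described here code for the enzymes and carriers that bring pyruvate and fatty acids into mitochondria and oxidise them. They cover 6 genes of pyruvate entry, 13 of the tricarboxylic acid (TCA) cycle and 21 of fatty acid uptake and oxidation. They were chosen by name from known pathway membership, with earlier results of these data known. All 40 were found among the 13116 genes of the deposited table, and all 40 were among the 13089 genes tested. RNA came from quadriceps muscle of male mice aged 18 months that had been injected in a tail vein at 9 months of age. WT_PBS mice were wild type and received PBS. KO_PBS mice lacked Gaa, the lysosomal enzyme acid alpha-glucosidase that degrades glycogen and is deficient in Pompe disease, and received PBS. KO_secGAA mice lacked Gaa too and received AAV8-sp7-delta8-hGAAco, a viral vector for a secreted form of human GAA (secGAA) that the series title places in the liver. Each group had 3 libraries of poly-A RNA. The labels give neither the knockout allele, the strain nor the promoter of the vector, and do not say in words that each library came from another mouse, so p-values measure the spread between these libraries.

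Pyruvate enters the TCA cycle mainly as acetyl-CoA made by the pyruvate dehydrogenase complex, and pyruvate dehydrogenase kinases switch that complex off. Fatty acids are activated to acyl-CoA, carried through the inner mitochondrial membrane by the carnitine shuttle, and shortened by repeated rounds of beta-oxidation. Both routes deliver acetyl-CoA to the same cycle, and skeletal muscle shifts between them with feeding, exercise and fibre type.

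The values are normalized counts: reads of a gene, scaled to the library's effective size. The 9 libraries held 9299156 to 15957106 reads. The member with the fewest reads in any library still had 523. Gaa itself stood at 296, 129 and 264 for WT_PBS, 17.8, 14.5 and 14 for KO_PBS and 15.1, 15.6 and 16.6 for KO_secGAA, so the labels of genotype held in all 9. All 12 skeletal muscle markers examined, among them Acta1 and Ckm, were abundant in every library. The scaling factors differed between groups. Without them the median of all genes was 0.31 in place of 0.01 (log2) in KO_PBS against WT_PBS, -0.14 in place of 0.00033 in KO_secGAA against KO_PBS and 0.16 in place of 0.0047 in KO_secGAA against WT_PBS, and each difference below is relative to a median gene near 0.

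RefSeq promoter windows (build GRCm38.p6, 250 bases before to 50 bases after a start site) were matched for 36 of the 40 genes. They were searched on both strands for 5 motifs of factors known from mitochondrial and fatty acid genes. The 250 upstream bases are printed 5′ to 3′ on the gene's own strand, in lower case, with every motif match in capitals. Sucla2, Idh3g and Acadm are shown because they fell in the knockout and hold a match in the printed bases. Idh2 is shown because it was the member that rose. Dld also fell, but its match lies after the start site. Cpt2, Dlst, Etfb, Etfdh, Idh3b, Ogdh and Slc25a20 hold a match but were not among the genes that fell or rose.
Sucla2: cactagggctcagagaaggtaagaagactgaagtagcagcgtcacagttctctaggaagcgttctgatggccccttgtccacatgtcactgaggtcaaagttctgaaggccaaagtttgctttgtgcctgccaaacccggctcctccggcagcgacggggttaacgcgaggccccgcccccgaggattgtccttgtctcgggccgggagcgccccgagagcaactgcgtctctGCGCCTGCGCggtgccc
Idh3g: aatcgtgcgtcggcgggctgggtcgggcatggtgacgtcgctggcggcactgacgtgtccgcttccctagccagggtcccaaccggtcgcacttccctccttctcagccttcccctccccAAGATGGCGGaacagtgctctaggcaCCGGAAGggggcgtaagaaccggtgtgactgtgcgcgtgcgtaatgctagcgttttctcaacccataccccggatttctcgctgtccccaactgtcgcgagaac
Acadm: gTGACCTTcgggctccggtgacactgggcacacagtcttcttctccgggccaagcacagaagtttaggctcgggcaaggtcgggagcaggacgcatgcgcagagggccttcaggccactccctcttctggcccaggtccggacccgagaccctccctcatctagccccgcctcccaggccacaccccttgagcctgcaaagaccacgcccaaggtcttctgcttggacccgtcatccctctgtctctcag
Idh2: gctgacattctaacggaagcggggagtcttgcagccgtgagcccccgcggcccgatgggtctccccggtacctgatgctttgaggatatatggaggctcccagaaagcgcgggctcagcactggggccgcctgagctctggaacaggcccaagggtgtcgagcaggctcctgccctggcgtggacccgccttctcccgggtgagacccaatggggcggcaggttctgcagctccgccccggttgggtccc
The Sucla2 stretch lies at chr14:73552536-73552785 on the plus strand, that of Idh3g at chrX:73786898-73787147, that of Acadm at chr3:153944644-153944893 and that of Idh2 at chr7:80115351-80115600, all 3 on the minus strand. The capitals in Sucla2 are an NRF1 match with 1 free base, starting 17 bases before the start site. Those in Idh3g are a YY1 match, the longer run, and an ETS match, the core that GABP binds (CCGGAAG). Those in Acadm are the reverse complement of the estrogen-related receptor half-site (AAGGTCA), and the Idh2 stretch holds no match. Over the 300-base windows, the NRF1 letters were present for 4 of the 36 genes (Dld, Etfb, Etfdh and Sucla2), 11.1%, and for 5.19% of all 27025 genes with a window. ETS letters were present for 5 (Cpt2, Dlst, Idh3b, Idh3g and Slc25a20), 13.9%, against 9.93% of all genes. The half-site was present for 2 (Acadm and Ogdh), 5.56%, against 5.38%, and the YY1 letters for 1 (Idh3g), 2.78%, against 0.995%. The direct repeat of the PPAR and RXR pair (a DR1, of 2 half-sites 1 base apart), which overlaps a half-site where its middle base is A, was in none of the 36 windows and in 0.0481% of all genes. A match describes letters in a window and is not a binding site.

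The first comparison, KO_PBS against WT_PBS, asks what loss of Gaa does in this muscle. Of the 40 genes, 14 fell and 1 rose at an adjusted p under 0.05 (limma on log2 values, Benjamini-Hochberg over all genes tested), while 11% of all genes fell, 10.9% rose and 21.9% changed in either direction. The median difference of the 40 was -0.32 on the log2 scale and that of all genes was 0.01. The falls lay mostly before and inside the TCA cycle. Of the 19 genes of pyruvate entry and the cycle, 12 fell (median -0.45). Of the 21 fatty acid genes, 2 fell (median -0.18, but 0.13 without scaling factors). Without WT_PBS 1, 16 of the 19 and 6 of the 21 fell (medians -0.54 and -0.35). Without WT_PBS 2, 7 and 0 fell (medians -0.38 and -0.056). The difference between these sets of genes was not tested. In 16 of the 40 every KO_PBS library lay below every WT_PBS library, which held for 19% of all genes, and in 1 every KO_PBS library lay above, which held for 20.7%. Without the scaling factors the 14 kept their negative sign but Suclg1 alone still passed, Idh2, Ogdh and Eci2 passed as higher and the median of the pyruvate and TCA genes was -0.14. Quantile normalization lost the calls of Cpt1b, Idh3g, Mdh2 and Sucla2. The calls of Cpt1b, Idh3g and Mdh2 were also lost without the trend and, with that of Idh2, in a fit of the compared groups only. DESeq2 called 5 more as lower (Acads, Dlst, Etfb, Idh3b and Pdha1). Leaving out 1 library at a time gave between 6 and 22 falls: 22 without WT_PBS 1, 17 without KO_PBS 1, 7 without WT_PBS 2, WT_PBS 3 or KO_PBS 3, and 6 without KO_PBS 2.

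**Figure D1:**
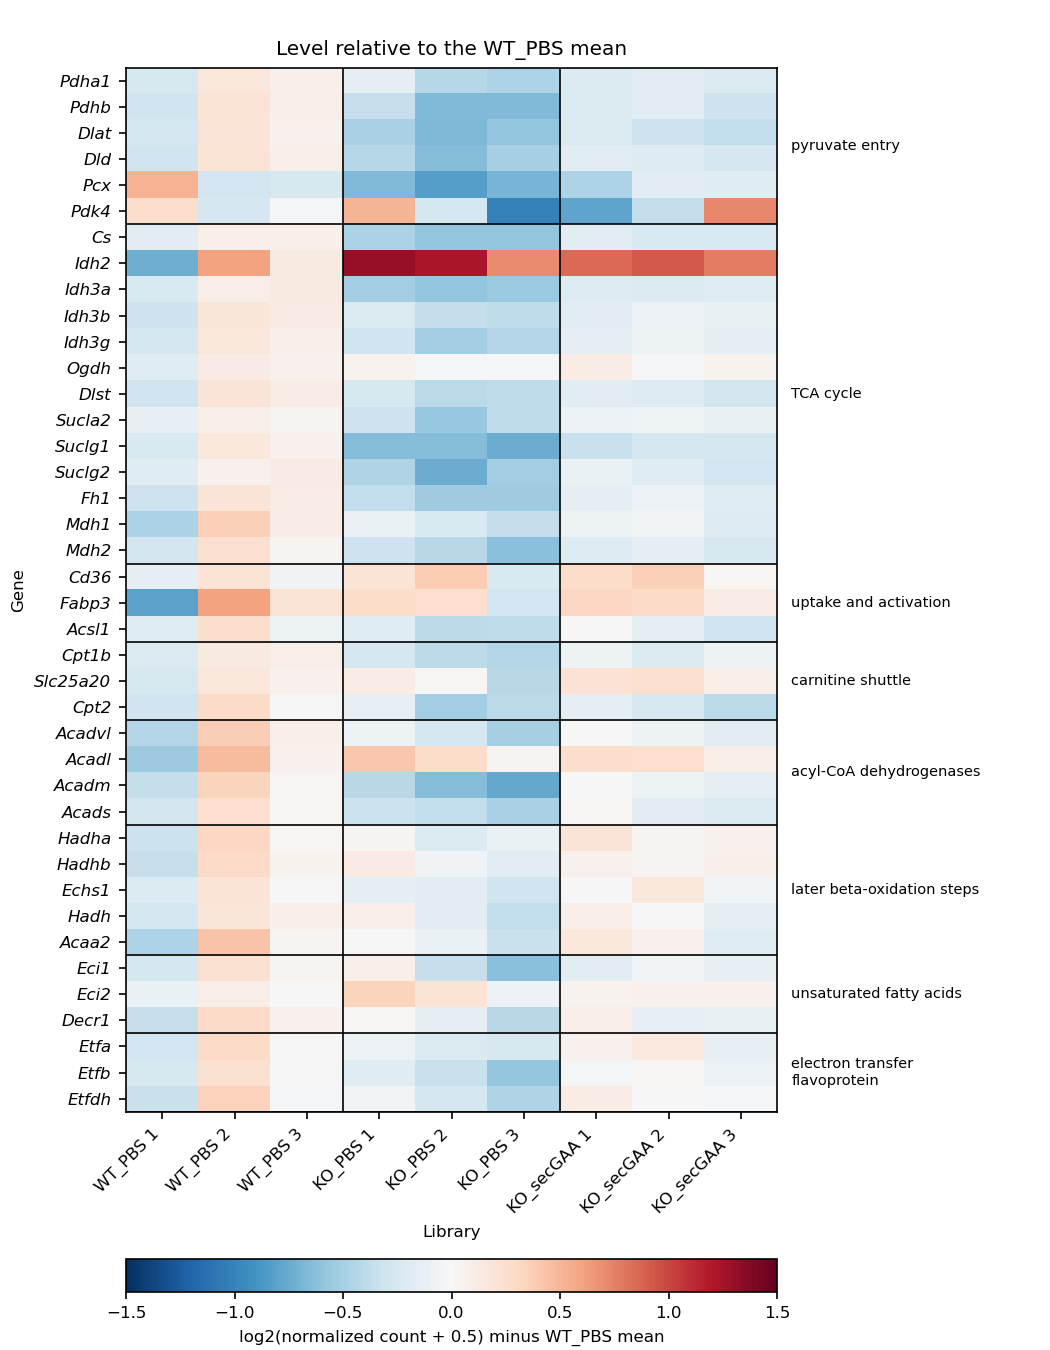
Colour gives log2(normalized count + 0.5) minus the mean of the 3 WT_PBS libraries, for 40 genes (rows, ordered by step) in 9 libraries (columns). Blue dominates the pyruvate and TCA rows of the 3 KO_PBS columns, Idh2 is red in all 6 knockout columns, and WT_PBS 1 is paler or bluer than WT_PBS 2 in most rows.

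Pyruvate entry fell at 3 of the 4 genes listed for the dehydrogenase complex and at pyruvate carboxylase. Dlat, the acetyltransferase core of the complex (chr9:50634633-50659780, minus strand, GRCm38), stood at 177, 243 and 223 across WT_PBS, 151, 133 and 140.2 across KO_PBS and 182, 171 and 164 across KO_secGAA. Every KO_PBS library was below all others. It fell by 0.59 ± 0.12 (SE, log2; -33.3%; adjusted p = 0.00649), and passed whichever library was left out. Pdhb, the beta subunit of the decarboxylase, had 270.1, 384 and 353 across WT_PBS, 261, 209 and 209 across KO_PBS and 288, 297 and 267 across KO_secGAA, a change of -32.1% (adjusted p = 0.0182). Dld, the dehydrogenase shared with the 2-oxoglutarate complex, had 248, 353 and 325 across WT_PBS, 227, 194 and 216 across KO_PBS and 274, 268 and 256 across KO_secGAA, a change of -30.6% (adjusted p = 0.0151). For both, the KO_PBS libraries lay below the other 6. The alpha subunit Pdha1, which phosphorylation controls, did not pass (552, 733 and 690.1 in WT_PBS against 589, 487 and 476 in KO_PBS; adjusted p = 0.0726; 95% interval -0.62 to -0.07). The call of Pdhb was lost without any 1 of WT_PBS 2 or 3 and KO_PBS 2 or 3 (adjusted p up to 0.0708), and that of Dld without WT_PBS 2, WT_PBS 3 or KO_PBS 2 (up to 0.0633).

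Pcx, pyruvate carboxylase, makes oxaloacetate from pyruvate and is also abundant in fat tissue. It stood at 148, 83.8 and 86.9 across WT_PBS, 64.4, 57.6 and 62.8 across KO_PBS and 74.3, 91.5 and 90.4 across KO_secGAA, with WT_PBS 1 far above the other 8 libraries. It fell by 39.7% (adjusted p = 0.0235), and the call was lost without KO_PBS 2 or KO_PBS 3 (up to 0.0788). The summed level of 9 adipocyte markers was also highest in WT_PBS 1, at 1903, against 756 to 974 in the other WT_PBS libraries, 493 to 922 in KO_PBS and 720 to 1500 in KO_secGAA. Adipoq, a defining fat cell gene, stood at 78.2, 23.4 and 13.4 across WT_PBS and 17.1, 24.7 and 9.7 across KO_PBS, and the part of fat cells in the Pcx result was not tested. Pdk4, the kinase that inactivates the dehydrogenase complex when fat is burned, spread widely inside each group: 1252, 877 and 1028 across WT_PBS, 1479.5, 866 and 516 across KO_PBS and 600.4, 811 and 1723 across KO_secGAA. All 3 groups overlapped, and its interval of -1.19 to 0.68 (log2, KO_PBS minus WT_PBS) covers changes of either sign.

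Of the 13 TCA cycle genes, 8 fell and Idh2 rose, and the falls touched most steps of the cycle. Cs, citrate synthase, which joins acetyl-CoA to oxaloacetate, had 667, 801 and 793 across WT_PBS, 541, 498 and 498 across KO_PBS and 672, 639 and 640.2 across KO_secGAA. KO_PBS formed a tight low group with no overlap with the other 6 libraries. It fell by 0.55 ± 0.093 (SE, log2; -31.8%; adjusted p = 0.00294).

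Succinyl-CoA ligase, which makes a nucleoside triphosphate from succinyl-CoA, fell at all 3 of its subunit genes. Suclg1, the alpha subunit common to both forms of the enzyme (chr6:73248382-73276911, plus strand), had 313, 408 and 382 across WT_PBS, 232, 232 and 218 across KO_PBS and 291, 303 and 303 across KO_secGAA. The 3 groups formed 3 separate ranges, lowest in KO_PBS and highest in WT_PBS. It fell by 0.68 ± 0.10 (SE, log2; -37.8%; adjusted p = 0.00143) and was the one member that passed under every one of the 21 alternatives. Sucla2, the subunit of the ATP-forming enzyme, had 427, 492 and 478 across WT_PBS and 374, 313 and 357 across KO_PBS, a change of -25.3% (adjusted p = 0.0104). Suclg2, its GTP-forming counterpart, had 61.1, 72.6 and 75.4 across WT_PBS and 50.8, 41.3 and 48.1 across KO_PBS, a change of -32.7% (adjusted p = 0.00569). In both, every KO_PBS library lay below every other library. Per kilobase of transcript, the WT_PBS level was 209 for Sucla2 and 20.7 for Suclg2, so the transcript of the ATP-forming subunit was the more abundant.

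**Figure D2:**
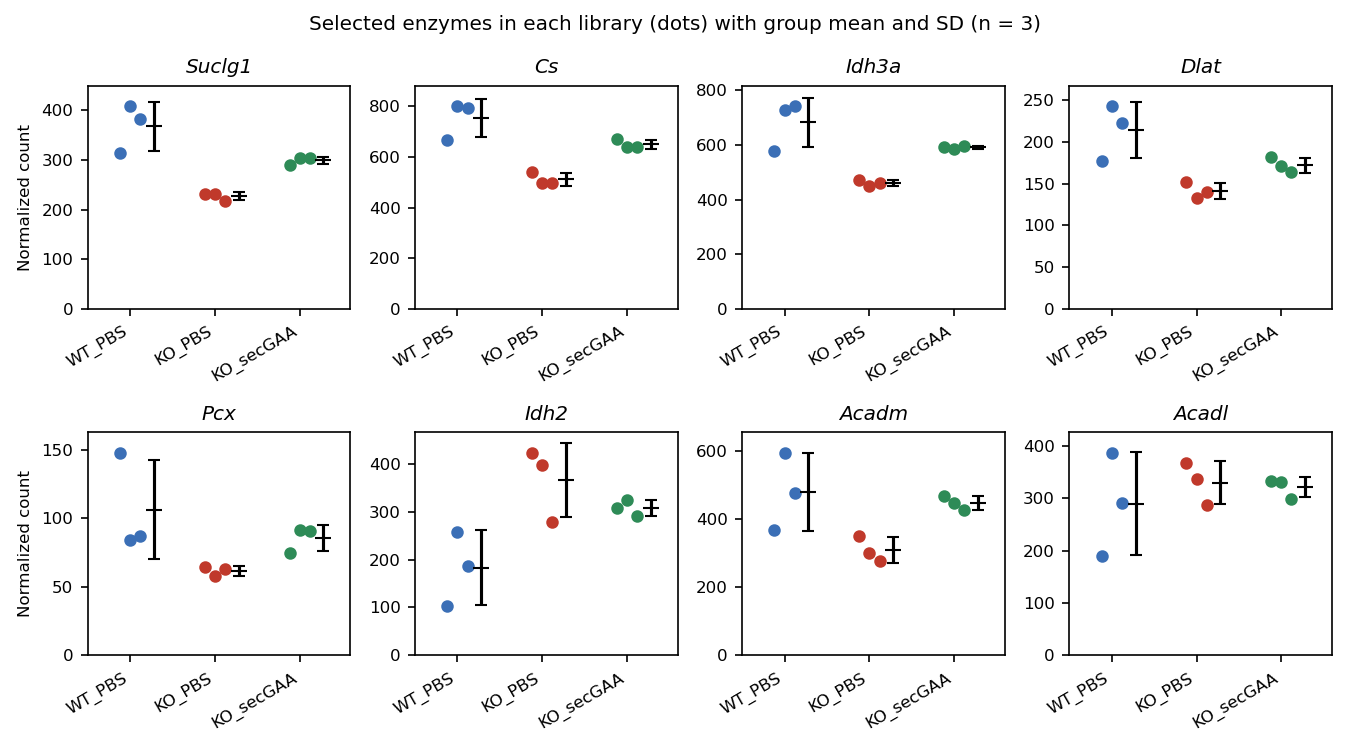
Normalized count of 8 genes in each library (dots; vertical axes start at 0 and differ between panels) with the group mean and SD (n = 3 libraries). Suclg1, Cs, Idh3a, Dlat, Pcx and Acadm were lowest in KO_PBS, Idh2 was lowest in WT_PBS, and Acadl overlapped between all groups.

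Isocitrate is oxidised by 2 kinds of enzyme. Idh3a and Idh3g of the NAD-dependent kind fell, while Idh2 of the NADP-dependent kind rose. The NAD-dependent form is the regulated enzyme of the forward cycle. Its catalytic subunit Idh3a had 577, 727 and 741 across WT_PBS, 470.2, 449.6 and 459 across KO_PBS and 592, 583 and 596 across KO_secGAA, and fell by 0.56 ± 0.10 (SE, log2; -32.1%; adjusted p = 0.00423). Idh3g, a second subunit, had 309, 415 and 388 across WT_PBS and 299, 258 and 270.4 across KO_PBS, a change of -25.1% (adjusted p = 0.0259). For both genes, the KO_PBS libraries lay below all others. Idh3b, the remaining subunit, did not pass (445, 629 and 603 against 477, 431 and 426; -0.32, 95% interval -0.60 to -0.034). Idh2, the NADP-dependent mitochondrial form, which also makes NADPH (chr7:80094846-80115392, minus strand), stood at 102, 258 and 187 across WT_PBS, 423, 397 and 279 across KO_PBS and 307, 324 and 291 across KO_secGAA. Every knockout library, treated or not, was above every WT_PBS library, and WT_PBS itself spread more than the treated group. It rose by 1.08 ± 0.29 (SE, log2; 111%; adjusted p = 0.0239). That call was lost without WT_PBS 3, KO_PBS 1 or KO_PBS 2 (up to 0.0799) and in a fit of the compared groups only, and it was kept without scaling factors.

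A ratio of genes inside 1 library does not depend on the scaling. The ratio of Idh2 to Idh3a was 0.177, 0.355 and 0.253 in the WT_PBS libraries, 0.899, 0.883 and 0.607 in KO_PBS, and 0.518, 0.556 and 0.488 in KO_secGAA. The means were 0.262 ± 0.0894, 0.797 ± 0.164 and 0.521 ± 0.034 (SD, n = 3), in 3 ranges that did not overlap. This ratio and that of Acadl to Acadm below were chosen after the values were seen and carry no test.

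**Figure D3:**
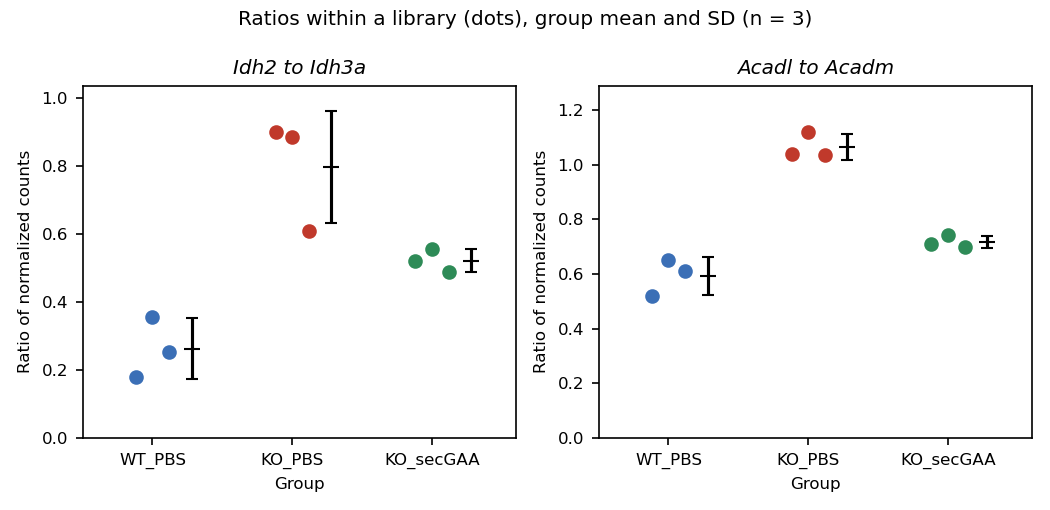
Ratio of normalized counts of Idh2 to Idh3a (left) and of Acadl to Acadm (right) within each library (dots), with group mean and SD (n = 3 libraries). In both panels the 3 groups form separate ranges, lowest in WT_PBS and highest in KO_PBS.

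The later steps of the cycle were mixed. Fh1, fumarase, had 249, 355 and 334 across WT_PBS and 238, 213 and 214 across KO_PBS, a change of -28.3% (adjusted p = 0.0225). Mdh2, the mitochondrial malate dehydrogenase, had 785, 1119 and 974 across WT_PBS and 762, 713 and 613 across KO_PBS, a change of -27% (adjusted p = 0.0376). KO_PBS lay below WT_PBS in all libraries for both, although KO_PBS 1 came close to WT_PBS 1. The cytosolic Mdh1 of the malate-aspartate shuttle overlapped between groups (560.2, 996 and 842 against 723, 665 and 605; -0.23, 95% interval -0.64 to 0.17). Ogdh, the oxidising subunit of the 2-oxoglutarate dehydrogenase complex, had 616, 765 and 729.9 across WT_PBS, 727, 691 and 693 across KO_PBS and 758, 686 and 727 across KO_secGAA. The groups overlapped, with a difference of 0.0064 and an interval of -0.21 to 0.23. Dlst, the transferase of that complex, missed the threshold (-0.34, adjusted p = 0.0785). Cs, Idh3a, Suclg1, Suclg2 and Sucla2 passed whichever library was left out. Idh3g and Fh1 lost their calls without any 1 of WT_PBS 2 or 3 and KO_PBS 2 or 3 (up to 0.097 and 0.0879), and Mdh2 without any of 6 libraries, the same 4 and KO_secGAA 1 or 2 (up to 0.122).

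Fatty acid uptake and activation did not pass at any of its 3 genes in limma, edgeR, voom or DESeq2, and 1 of the 3, Acsl1, was lower at an unadjusted p under 0.05, as 17.4% of all genes were. Cd36, the fatty acid translocase of the plasma membrane, had 242, 310.4 and 258 across WT_PBS and 309.6, 349 and 229 across KO_PBS, with an interval of -0.24 to 0.48 (log2). Fabp3, the fatty acid binding protein of muscle cytosol, had 240.4, 641 and 484 across WT_PBS and 509, 501 and 344 across KO_PBS. WT_PBS 1 held less than any other library, and the interval was wide (-0.60 to 0.76). Acsl1, which activates long-chain fatty acids, was lower in every KO_PBS library (209, 283 and 223 against 208, 180.2 and 182) but missed the threshold (-0.32, adjusted p = 0.105).

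Of the carnitine shuttle, Cpt1b passed. Cpt1b is the muscle carnitine palmitoyltransferase of the outer membrane and the controlled step of fatty acid entry. It had 270.1, 345 and 334 across WT_PBS, 265, 239.8 and 232 across KO_PBS and 297, 269.9 and 298 across KO_secGAA, with each KO_PBS library below all others. It fell by 22% (adjusted p = 0.0376), and the call was lost without any 1 of WT_PBS 2 or 3 and KO_PBS 2 or 3 (up to 0.133). The annotated locus Gm44502 overlaps Cpt1b on the same strand, so the split of reads between them is uncertain. Cpt2, the transferase of the inner membrane, had 62.8, 95.1 and 78 against 71, 53.7 and 58.5 (-0.35, adjusted p = 0.137). The carrier Slc25a20 overlapped between groups (-0.094, 95% interval -0.42 to 0.24).

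The acyl-CoA dehydrogenases, which take the first step of each round for chains of different length, differed in outcome, and 1 of the 4 fell. Acadm, the medium-chain enzyme (chr3:153922357-153944632, minus strand), had 368, 596 and 478 across WT_PBS, 353, 301 and 277 across KO_PBS and 470.1, 447 and 428 across KO_secGAA. KO_PBS lay below all other libraries. It fell by 0.61 ± 0.16 (SE, log2; -34.5%; adjusted p = 0.0233), a call lost without any 1 of WT_PBS 2 or 3 and KO_PBS 2 or 3 (up to 0.0769). Acads, the short-chain enzyme, was lower in every KO_PBS library (87.8, 127 and 109 against 85.4, 82.2 and 75.8) and missed the threshold (-0.40, adjusted p = 0.0568). Acadvl, the very-long-chain enzyme of the inner membrane, overlapped (319, 563 and 456 against 413, 361 and 307; 95% interval -0.70 to 0.14). Acadl, the long-chain enzyme, had 190.3, 387 and 292 across WT_PBS, 367, 337 and 287 across KO_PBS and 334, 332 and 299 across KO_secGAA, also overlapping, with a difference of 0.24 (95% interval -0.24 to 0.72). The ratio of Acadl to Acadm was 0.518, 0.65 and 0.611 over the WT_PBS libraries, 1.04, 1.12 and 1.04 over KO_PBS, and 0.71, 0.742 and 0.698 over KO_secGAA. Its means were 0.593 ± 0.0679, 1.07 ± 0.0475 and 0.717 ± 0.0224 (SD, n = 3). The 3 ranges were separate.

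The rest of beta-oxidation did not pass at any of its 11 genes in limma, edgeR or voom, and 1 of the 11, Etfb, was lower at an unadjusted p under 0.05, below the 17.4% of all genes. DESeq2 called Etfb. For the 5 later steps the differences lay between -0.20 and -0.03 (log2). Hadha and Hadhb, the 2 subunits of the trifunctional protein, lie on opposite strands with start sites 273 bases apart in the RefSeq windows. In the GENCODE annotation their starts are nearer, at chr5:30155162 and chr5:30155248. Hadha had 295, 457 and 374 across WT_PBS and 381, 321 and 344 across KO_PBS (95% interval -0.41 to 0.23). Hadhb had 335, 522 and 442 across WT_PBS and 463, 409.9 and 382 across KO_PBS (95% interval -0.36 to 0.29). Both were lowest in WT_PBS 1 and highest in WT_PBS 2, with a Hadha to Hadhb ratio of 0.868 ± 0.0183 in WT_PBS, 0.835 ± 0.0606 in KO_PBS and 0.893 ± 0.0516 in KO_secGAA (SD, n = 3). Echs1, the short-chain enoyl-CoA hydratase, had the smallest p of these steps (106, 142 and 122 against 112, 109 and 99.7; -0.20, adjusted p = 0.241). Hadh and Acaa2, the medium- and short-chain dehydrogenase and the thiolase, differed by -0.15 and -0.14. Of the auxiliary enzymes of unsaturated chains, Eci1 had the smallest p (89.4, 125 and 110.3 against 113, 84.1 and 69.6; -0.30, 95% interval -0.68 to 0.086), with Eci2 at 0.15 and Decr1 at -0.18. The electron transfer flavoprotein and its dehydrogenase, which hand the electrons of the first step to ubiquinone, had differences of -0.18 for Etfa, -0.37 for Etfb (adjusted p = 0.0726) and -0.25 for Etfdh.

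The second comparison, KO_secGAA against KO_PBS, asks what the vector changes in knockout muscle. It shares the KO_PBS libraries with the first, so low KO_PBS values enter both. None of the 40 genes passed in limma, where 3.67% of all genes changed (2.31% fell and 1.37% rose). At an unadjusted p under 0.05, 13 of the 40 were higher and 0 lower, against 9.2% and 10.1% of all genes. Values were higher in the treated group for 37 of the 40, with a median of 0.21 (0.05 without scaling factors). In 19 of the 40 every treated library lay above every KO_PBS library, which held for 11.7% of all genes. The edgeR and voom fits called 0, and DESeq2 called 5 as higher: Acadm, Cs, Idh3a, Sucla2 and Suclg1.

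The genes nearest the threshold were among those lowest in KO_PBS. Suclg1 was higher by 0.39 ± 0.10 (SE, log2; adjusted p = 0.0635), Cs by 0.34 (0.0784), Sucla2 by 0.33 (0.0832), Idh3a by 0.36 (0.0898) and Suclg2 by 0.38 (0.0972). Acadm had the largest positive difference, 0.54 (95% interval 0.18 to 0.90; adjusted p = 0.104). In all 6, each treated library was above each KO_PBS library. Idh2 was -0.23 (95% interval -0.87 to 0.41), Eci2 -0.088 and Acadl -0.033: these were the 3 with lower values after treatment. Without WT_PBS 1, whose removal only alters the shared estimate of spread, 6 passed (Acadm, Cs, Fh1, Idh3a, Pcx and Suclg1), and a fit of the compared groups alone called Acadm and Suclg1.

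**Figure D4:**
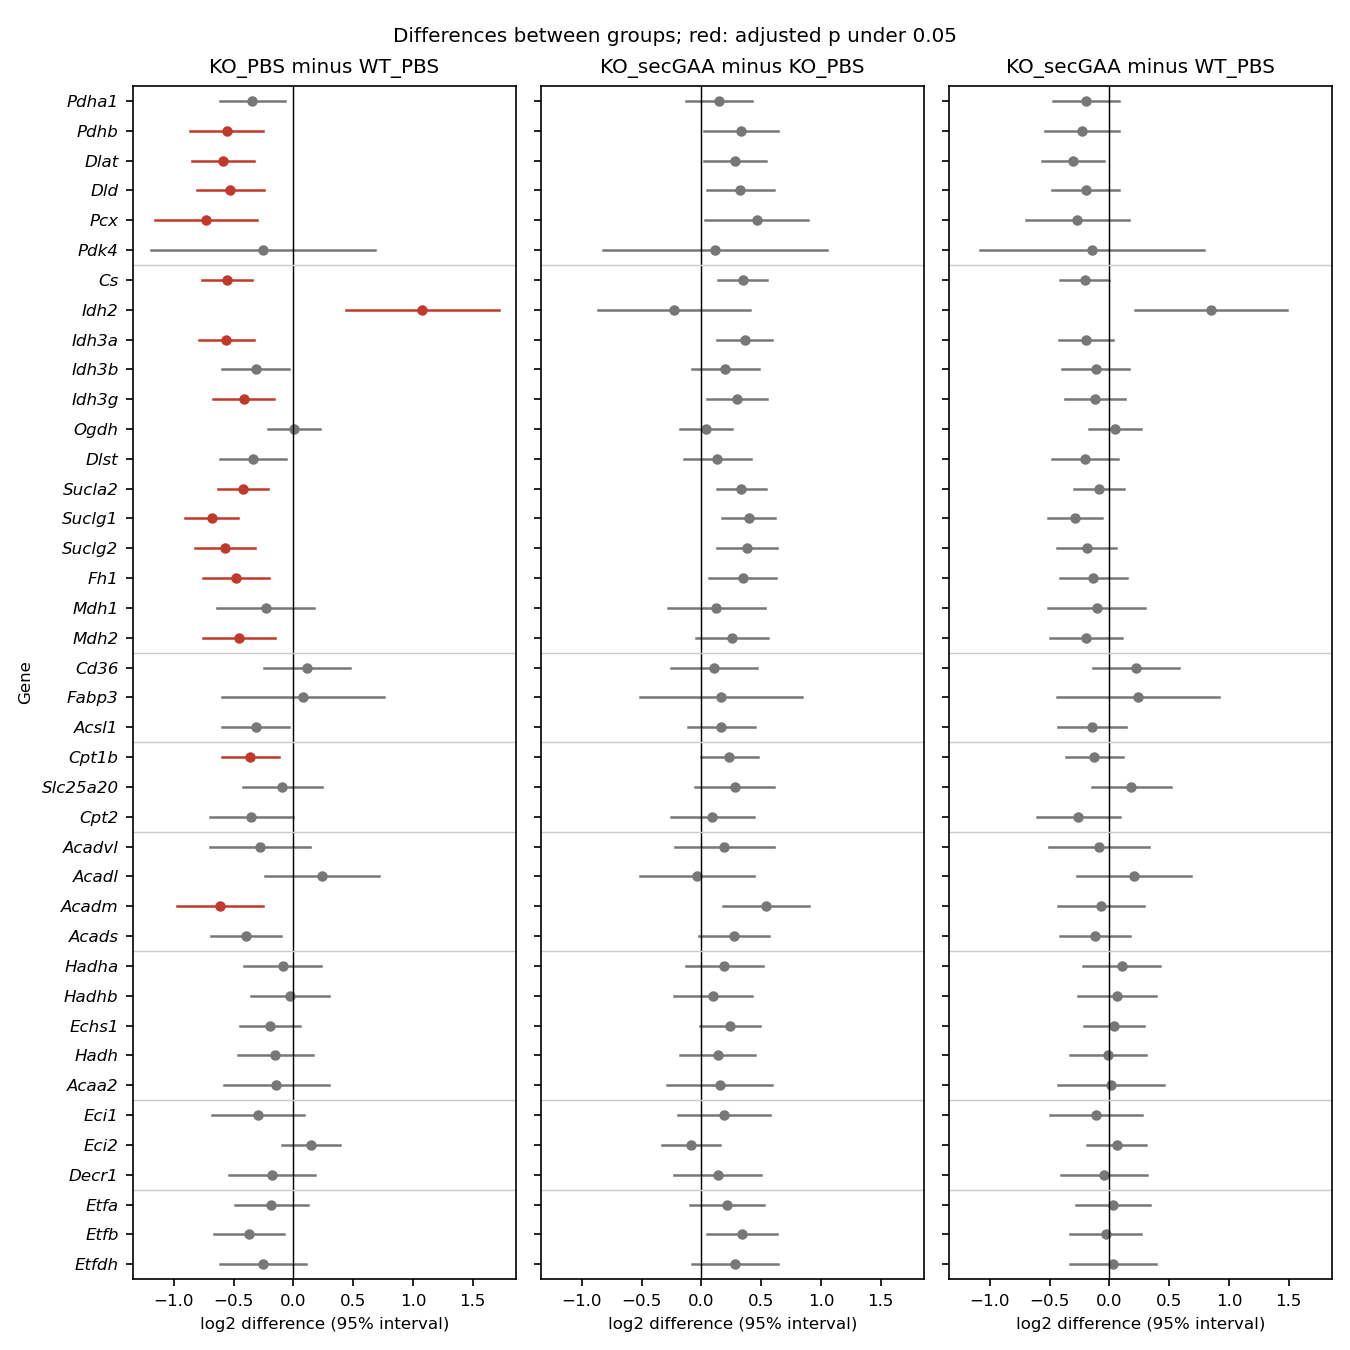
Difference in log2(normalized count + 0.5) with its 95% interval for each of 40 genes (rows, in the order of the steps) in the 3 comparisons (panels), with red where the adjusted p was under 0.05. Red marks 14 negative differences and Idh2 in the left panel and none in the others. Most points lie right of 0 in the middle panel. In the right panel 17 of the 19 pyruvate and TCA genes lie left of 0. Of the 21 fatty acid genes 10 lie left and 11 right of 0 there.

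The third comparison, KO_secGAA against WT_PBS, asks how far treated muscle stood from wild type. None of the 40 passed in limma, edgeR, voom or DESeq2, where limma called 3.72% of all genes (1.89% fell and 1.83% rose). At an unadjusted p under 0.05, 2 were lower (Suclg1 and Dlat) and 1 higher (Idh2), against 10.5% and 11% of all genes. Suclg1 was the gene with every treated library below every WT_PBS library (13.3% of all genes), at -0.29 (95% interval -0.51 to -0.065; adjusted p = 0.134), and Idh2 the gene with every treated library above (13.5% of all genes), at 0.85 (95% interval 0.21 to 1.48; adjusted p = 0.124). Dlat differed by -0.30 (95% interval -0.56 to -0.042). The median was -0.20 for the 19 pyruvate and TCA genes and 0.01 for the 21 fatty acid genes. These were -0.033 and 0.17 without scaling factors, -0.29 and -0.15 without WT_PBS 1, and -0.11 and 0.11 without WT_PBS 2, and the fatty acid median was 0.027 without WT_PBS 3, -0.037 without KO_secGAA 1, -0.020 without KO_secGAA 2 and 0.054 without KO_secGAA 3. Without WT_PBS 1, Dlat and Suclg1 passed as lower.

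By group means of normalized counts, 28 of the 40 genes were lowest in KO_PBS, intermediate in KO_secGAA and highest in WT_PBS. The share of all genes with this order was not counted. Another 7 were lowest in KO_PBS and highest in KO_secGAA, 2 were lowest in WT_PBS and highest in KO_secGAA, and 3 were lowest in WT_PBS and highest in KO_PBS. Fabp3, among the 7, was slightly higher in KO_PBS than in WT_PBS on the log2 scale (0.079). Some neighbouring means were closer than either SD, as for Etfb at 226 ± 8.87 in KO_secGAA and 233 ± 37.3 in WT_PBS (SD, n = 3). Per kilobase of transcript, WT_PBS levels ran from 20.7 for Suclg2 to 659 for Mdh2, with 553 for Fabp3 and 377 for Mdh1 next to the top. Idh2 stood at 105 per kilobase in WT_PBS, under Idh3a at 284, and at 209.8 in KO_PBS, beside 191 for Idh3a.

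The spread inside groups was shared by most members. WT_PBS 1 was the lowest of its group for 38 of the 40 genes and for all 21 fatty acid genes, and WT_PBS 2 was the highest for 36. KO_PBS 1 was the highest of its group for 38. Averaged over the 40 genes, the log2 distance from the WT_PBS mean was -0.27, 0.22 and 0.049 in the WT_PBS libraries, -0.11, -0.28 and -0.41 in KO_PBS, and -0.033, -0.036 and -0.09 in KO_secGAA. The treated libraries thus lay closest together, and WT_PBS 1 lay inside the KO_PBS range. For fatty acid genes alone, WT_PBS ran from -0.32 to 0.29 and overlapped the KO_PBS range of -0.36 to -0.0076. For pyruvate and TCA genes together, WT_PBS 1 at -0.215 nearly met KO_PBS 1 at -0.218. For the TCA genes alone WT_PBS 1 was lower than KO_PBS 1 (-0.29 against -0.20). WT_PBS 1 also held the least of its group for Mb, the oxygen store of oxidative fibres (1295, 5291 and 2979 in WT_PBS), and for Myh2, the fast oxidative myosin (326, 2345 and 988), and the most for Myh4, the fast glycolytic myosin (55643, 38852 and 50016).

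**Figure D5:**
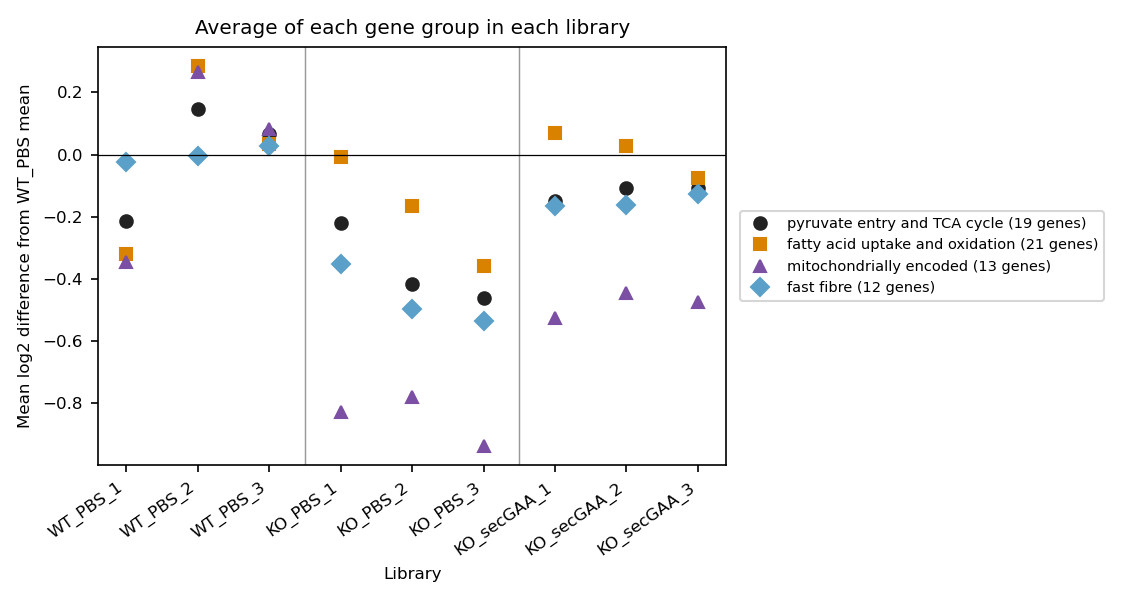
Mean log2 difference from the WT_PBS mean over the genes of 4 lists (markers) in each of 9 libraries (columns). Pyruvate and TCA genes (-0.22, -0.42 and -0.46 in KO_PBS) and mitochondrially encoded genes (-0.83, -0.78 and -0.94) are low in KO_PBS. For pyruvate and TCA genes WT_PBS 1 (-0.215) nearly meets KO_PBS 1 (-0.218), and fatty acid genes overlap between WT_PBS and KO_PBS.

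Other transcripts moved with these groups, and their part in the results was not tested. Over all genes 11% fell and 10.9% rose in KO_PBS against WT_PBS, and 2.31% fell and 1.37% rose in KO_secGAA against KO_PBS. The mitochondrial genome's own transcripts were lower: 12 of 13 fell in KO_PBS against WT_PBS (median -0.86). The falls were 7 without scaling factors, 3 after quantile normalization, 8 without KO_PBS 2, and 7 without WT_PBS 3 or KO_PBS 3. All genes with an mt- symbol, not these 13 alone, took 11.6% to 17.0% of reads in WT_PBS. Their share was 9.85% to 10.7% in KO_PBS and 11.4% to 12.2% in KO_secGAA. Slow fibre genes rose at 7 of 10, with a summed level of 88.8 to 629 in WT_PBS, 688 to 2793 in KO_PBS and 390 to 1201 in KO_secGAA (2 without WT_PBS 3, 3 without WT_PBS 1 or KO_PBS 1, 4 without KO_PBS 2, 4 with voom). Fast fibre genes fell at 7 of 12, with sums of 149979 to 189850, 113261 to 122530 and 143726 to 161350 (2 without WT_PBS 3, 3 without KO_PBS 2, 4 without KO_PBS 1 or KO_PBS 3, 2 without scaling factors, and 1 after quantile normalization, with a median of 0.089). Endothelial markers fell at 6 of 12, with sums of 257 to 313, 183 to 236 and 254 to 289 (0 without scaling factors, 2 without WT_PBS 2 or KO_PBS 2, 3 without WT_PBS 1 or KO_PBS 1). Macrophage markers rose at 4 of 12, with sums of 76.1 to 121, 236 to 309 and 104 to 193 (9 without scaling factors, 8 with array weights, 7 with DESeq2, in the compared groups only or without KO_secGAA 3). Of the 12 skeletal muscle markers, of which several are also fast fibre genes, 5 fell and 1 rose, with a median of -0.50 that became 0.089 after quantile normalization. The falls were 8 with edgeR, voom or DESeq2, without the trend or with the filter at 5. They were 1 without scaling factors, 0 after quantile normalization, 2 in the compared groups only, 1 without WT_PBS 3, KO_PBS 2 or KO_PBS 3, 2 without KO_PBS 1, KO_secGAA 1 or KO_secGAA 2, and 3 without WT_PBS 1 or KO_secGAA 3. After the vector the muscle markers had a median of 0.27 (-0.018 after quantile normalization) and none passed in limma, with 4 higher and 1 lower at an unadjusted p under 0.05. In KO_secGAA against KO_PBS, 0 of 13 mitochondrially encoded, 0 of 10 slow fibre, 1 of 12 fast fibre and 1 of 12 endothelial genes rose, none of these fell, and 2 of 12 macrophage markers fell (1 without any 1 library other than WT_PBS 1 or 2). DESeq2 called 7 mitochondrially encoded, 6 fast fibre, 5 skeletal muscle and 2 endothelial genes as higher there, and 5 mitochondrially encoded genes passed without WT_PBS 1. In KO_secGAA against WT_PBS all 13 mitochondrially encoded genes had lower values (median -0.40, and -0.23 without scaling factors). Of these 0 passed in limma, 10 had an unadjusted p under 0.05 (10.5% of all genes were lower so), and DESeq2 called 12 as lower. Of 4 brown fat markers tested 1 rose, and Ucp1 and Elovl3 were not analysed here. Of 16 immediate early genes, which respond to handling of tissue, 6 rose and 1 fell in KO_PBS against WT_PBS. In this bulk muscle RNA, fewer cells or fibres of a type and less RNA per cell cannot be told apart. The 40 genes took 1.08% to 1.45% of reads in WT_PBS, 1.21% to 1.41% in KO_PBS and 1.31% to 1.36% in KO_secGAA, so their raw share of the library overlapped between all groups.

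Of 90 further genes of the same pathways, 88 were tested. In KO_PBS against WT_PBS 26 fell and 6 rose (median -0.23; without scaling factors 6 fell and 18 rose with a median of 0.08; 12 falls without WT_PBS 2 or KO_PBS 2, 13 without WT_PBS 3, 16 without KO_PBS 3, and 4 to 6 rises with 1 library left out). Over all genes 11% fell and 10.9% rose, the shares to set beside each list below. Without scaling factors the falls of Pdhx, Slc25a12, Sdha, Acat1, Acad8, Acot13, Acsl4, Acaca and Rxra, named below, did not pass. Control of pyruvate entry fell at 5 of 9 genes and rose at 1. Pdpr, the regulatory subunit of pyruvate dehydrogenase phosphatase, had 18.6, 29.7 and 22.4 across WT_PBS, 8.12, 8.63 and 9.61 across KO_PBS and 22.3, 18.6 and 19.9 across KO_secGAA. It fell by 60.8% in KO_PBS (adjusted p = 0.000508) and rose after the vector by 1.16 (log2; adjusted p = 0.00598), and the KO_PBS libraries were far below the other 6. Mpc2, a subunit of the pyruvate carrier, fell by 39.7% (259, 375 and 337 against 215, 201 and 166; adjusted p = 0.0063), and Pdhx, the binding protein of the complex, changed by -34% (adjusted p = 0.00842). Pdk3, a kinase at very low level here, rose by 1.61 (log2; 0.925, 0.386 and 0.851 against 3.03, 3.66 and 2.8; adjusted p = 0.00151).

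Among other TCA and anaplerotic enzymes 6 of 17 fell and 2 rose. Me1, the cytosolic malic enzyme, had 375, 291 and 328 across WT_PBS, 159, 163 and 162 across KO_PBS and 214, 223 and 265 across KO_secGAA, a change of -50.9% (adjusted p = 0.000283). It rose with the vector by 0.53 (adjusted p = 0.036) and remained below WT_PBS (-0.50; adjusted p = 0.04). The groups formed 3 separate ranges, but the call against KO_PBS was lost without any of 6 libraries (all but WT_PBS 1 or 2 and KO_secGAA 1; up to 0.106) and that against WT_PBS without any of 7 (all but WT_PBS 2 and KO_secGAA 3; up to 0.136). Gpt2, the mitochondrial alanine transaminase, had 305, 146 and 203 across WT_PBS and 80.5, 41 and 62.6 across KO_PBS, a change of -71.4% (adjusted p = 0.00242). Slc25a12, the muscle aspartate-glutamate carrier, fell by 30.4% (adjusted p = 0.00944) and Sdha, the flavoprotein of succinate dehydrogenase, changed by -25.9% (adjusted p = 0.0109).

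The other and peroxisomal beta-oxidation genes fell at 9 of 21 and rose at none in limma. The 2 with the smallest p belong to the branch that turns propionyl-CoA into succinyl-CoA, the substrate of Suclg1. Pcca, a subunit of propionyl-CoA carboxylase, had 53, 60.3 and 54 across WT_PBS, 25.9, 27.4 and 28.8 across KO_PBS and 42.1, 40.5 and 39.2 across KO_secGAA, a change of -50.4% (adjusted p = 7.11e-05). Its partner Pccb had 112, 101 and 106 across WT_PBS, 73.7, 69.4 and 67.8 across KO_PBS and 96.3, 93.5 and 99.3 across KO_secGAA, a change of -33.8% (adjusted p = 0.000644). In both genes the 3 groups did not overlap. Both rose with the vector, by 0.56 (adjusted p = 0.00898) and 0.45 (adjusted p = 0.0124), and the second call was lost without KO_PBS 2 (0.053). Acat1, the acetoacetyl-CoA thiolase, fell by 28.5% (adjusted p = 0.0155; 0.0552 without KO_PBS 3) and Acad8, of valine breakdown, changed by -21.1% (adjusted p = 0.0203), a call lost without any 1 of WT_PBS 2 or 3 and KO_PBS 1 or 2 (up to 0.0763). Without scaling factors the difference of Acad8 was -0.031 (log2).

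Of 24 genes of fatty acid handling 5 fell and 1 rose. Acot2, a mitochondrial thioesterase, rose by 1.07 (log2; 16.6, 12.3 and 11.3 against 28.4, 22.8 and 35.3; adjusted p = 0.0108), but it is nearly identical to Acot1 and the division of reads between them is uncertain. Acot13, another thioesterase, fell by 29.8% (adjusted p = 0.0156), Acsl4, an acyl-CoA synthetase, changed by -29.9% (adjusted p = 0.0157) and Acaca, which makes malonyl-CoA, by -53% (adjusted p = 0.0199). The call of Acot13 was lost without any 1 of WT_PBS 2 or 3 and KO_PBS 2 or 3, that of Acsl4 without WT_PBS 2, WT_PBS 3 or KO_PBS 2, and that of Acaca without WT_PBS 2, KO_PBS 2 or KO_PBS 3. Of a list of 17 genes, mostly regulators but with Ucp2, Ucp3 and Angptl4 as well, 2 rose and 1 fell. Esrrg, an estrogen-related receptor, rose by 1.56 (log2; 5.86, 15.1 and 8.11 against 28.9, 31 and 22.8; adjusted p = 0.00921) and Ucp2, an uncoupling protein, by 0.96 (adjusted p = 0.00273). Rxra, the partner of the PPARs, fell by 20% (adjusted p = 0.0217; lost without WT_PBS 3, KO_PBS 1, KO_PBS 3 or the trend). Without scaling factors the difference of Rxra was -0.0063 (log2). Ppargc1a, the coactivator known for driving mitochondrial genes, had 21.7, 20.3 and 28.5 across WT_PBS and 53, 12.5 and 12.6 across KO_PBS, with KO_PBS 1 far above the rest and an interval of -1.23 to 0.86. In KO_secGAA against KO_PBS 6 of the 88 rose (Pdpr, Me1, Pcca, Pccb, Acat1 and Mut) and 1 fell (Me2), while DESeq2 called 11 as higher and 4 as lower. In KO_secGAA against WT_PBS 5 fell (Me1, Pcca, Acsl3, Acsl4 and Rxra) and 2 rose (Pdk3 and Acot2). Over all genes 1.37% rose and 2.31% fell against KO_PBS, and 1.83% rose and 1.89% fell against WT_PBS. Mut, the methylmalonyl-CoA mutase of the propionyl branch, Me2, the mitochondrial malic enzyme, and Acsl3, an acyl-CoA synthetase, were named after their values were seen. Of these 14 calls, that of Pdpr and that of Pcca against KO_PBS were kept whichever library was left out.

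The 40 genes lie on 19 chromosomes and the 15 that changed on 12. Exons of 12 members overlap another annotated gene, 10 of them on the opposite strand only, and 1 of the 15 called genes (Cpt1b) is among the 12. Whether counting used strand is not given in the sources used here, so for those genes reads of the partner cannot be told apart.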

How the data were processed

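Libraries were made with the NEBNext Ultra kit and read from a single end over 61 bp, per the labels' protocols. Build GRCm38 and the tools RSEM, edgeR, limma, cutadapt and CASAVA stand in the submitters' processing notes. Their roles and versions, and the strand setting, were not given in the sources used here. The table deposited by the authors holds a normalized signal for 13116 genes in 9 libraries, called normalized counts per the file headers. All 118044 values (100%) were odd multiples of the library's value of 0.5 reads within a relative tolerance of 1e-06, so whole reads were recovered: value = (reads + 0.5) / effective size × 1e+06. TMM factors computed from those reads gave the table back within 5.1e-15.

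The 13089 genes that reached 1 in 3 or more libraries were fitted with limma 3.58.1 (trend, R 4.3.3) on log2(value + 0.5) over all 9 libraries, with 6 residual degrees of freedom and no covariate. Fold changes are on that scale, which understates those of low genes. p-values were adjusted by Benjamini-Hochberg over all genes tested and called under 0.05, and intervals are at 95%. edgeR 4.0.16 (quasi-likelihood), DESeq2 1.42.0 and voom on the recovered reads were alternatives, voom chosen after seeing the data. In KO_PBS against WT_PBS they called 2841, 3030 and 2805 genes, and limma 2867. Other alternatives were pseudocounts of 0.1 and 1, no filter or a filter at 5, no scaling factors, quantile normalization, no trend, array weights, the compared groups only, and each library left out. The script was tested on simulated data with known changes. Levels per kilobase use the principal transcript's length in the GENCODE annotation of GRCm38.

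The members and gene lists were chosen with earlier results of these data known. Members that passed were given by library, others by step with the smallest p named, and of each related list up to 4 genes that passed, by smallest p.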

Additional observations from a re-analysis of the deposited data

How the results depend on the processing

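Pseudocounts, filters and the trend left the counts of members within 1.5 times those reported. In KO_PBS against WT_PBS, leaving out 1 library gave 6 to 22 falls and 0 to 1 rises. Without scaling factors 1 fell, 3 rose and the median difference was 0.000839, with 4985 genes called in all, 89.6% of them up, against 49.9% in the deposited scaling. In a fit of the compared groups only, 0 rose. In KO_secGAA against KO_PBS, the number that rose was 1 with array weights, 2 in a fit of the compared groups, 5 with DESeq2 and 0 to 6 with 1 library left out, and the median without scaling factors was 0.0525. In KO_secGAA against WT_PBS, 0 to 2 fell with 1 library left out. The 15 called results of single members have 315 values under the alternatives, of which 257 passed, 58 did not and 0 changed sign. The 105 results not called have 2205, of which 40 passed and 103 had the other sign. Calls over all genes in KO_PBS against WT_PBS dropped from 2867 to 1744 without WT_PBS 3 and 1844 without KO_PBS 2. Those in KO_secGAA against KO_PBS went from 481 to 958 without scaling factors, 798 with DESeq2, 286 without the trend, 316 in the compared groups only, and 159 to 568 with 1 library left out. Those in KO_secGAA against WT_PBS went from 487 to 1009 without scaling factors, 1022 with DESeq2, 983 with array weights, 308 without the trend, and 94 to 503 with 1 library left out. The cause was not tested, beyond the smaller number of libraries. No paired analysis was possible because the labels give no replicate numbers shared between groups. Every member had 523 reads or more in each library, and the tests rest on the spread between 3 libraries a group.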

Other observations

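Pdk4 varied widely inside groups, and Ucp3, an uncoupling protein of muscle known to respond to fasting and fatty acids, was high and low in the same libraries. Ucp3 stood at 319, 166 and 240.1 across WT_PBS, 206, 99.4 and 93.3 across KO_PBS and 82.1, 133 and 305 across KO_secGAA. WT_PBS 1 was the highest of its group for both genes, as were KO_PBS 1 and KO_secGAA 3, and KO_PBS 3 and KO_secGAA 1 were the lowest of theirs for both. The labels used here give no feeding state, and the pair was chosen after its values were seen.

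Perm1, a muscle regulator of oxidative genes, had 149, 316 and 263 across WT_PBS, 194, 152 and 113 across KO_PBS and 165, 226 and 202 across KO_secGAA, and did not pass in KO_PBS against WT_PBS (-0.63, 95% interval -1.24 to -0.02; adjusted p = 0.13). Mlycd, which removes malonyl-CoA and so relieves the block on Cpt1b, had 92.9, 121 and 114 in WT_PBS and 139, 158 and 117 in KO_PBS (0.34, 95% interval -0.064 to 0.74; adjusted p = 0.212).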
